A study of Ovis aries with 8 samples.

Results

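RAC1 is a small GTPase, and its transcript was measured by 2 of the 15008 probes on an ovine expression array. All non-control probes that carry the gene name RAC1 were taken, 1 gene of the 821 that could be named, and both were designed to the same ovine expressed sequence tag. The gene was chosen by its difference between hypoxia and normoxia in these arrays, so that difference is described here without a test. Total RNA came from the carotid artery, which supplies the head, of 8 fetal sheep taken at gestation day 140. It was labelled with Cy3, and each sample was hybridised to its own single-colour array. The mothers of the 4 hypoxia fetuses were held at 3801 m from gestation day 30 to day 135 (the sample titles give 110 days). Those of the 4 normoxia fetuses stayed at 300 m. No strain, sex or genetic manipulation is given for either group. The labels separate the fetuses only by a number in the title, so every SD and SE measures the spread between these samples, which may be partly technical, and the number of arrays limits the precision.

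Rac proteins are molecular switches that cycle between a GTP-bound active and a GDP-bound inactive state. Exchange factors turn them on, GTPase-activating proteins turn them off, and GDP dissociation inhibitors hold them in the cytosol. Active RAC1 drives actin branching through the WAVE and Arp2/3 complexes and acts on cofilin through PAK and LIM kinases. In the vessel wall it also takes part in assembling NADPH oxidases, which make superoxide, and it is broadly expressed, whereas RAC2 is largely restricted to blood cells. Transcript level says nothing about how much of the protein is GTP-bound.

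RAC1 gave a clear signal on every array. Both probes were well above background on 8 of 8 arrays, with no spot saturated or marked as an outlier. Each probe was printed once per array, with 60 to 66 pixels per spot. The mean spot signal of A_70_P059126 was 2.85 to 66.2 times the local background, and that of A_70_P059127 was 3.47 to 76.5 times. The lowest ratio of each probe was on normoxia 1 and the next lowest on hypoxia 1. Arrays differed widely in brightness: the 75th percentile of the processed signal ran from 96.8 on hypoxia 1 and 124 on normoxia 1 to 1230 on hypoxia 3 and 1370 on normoxia 3.

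The unscaled signals of RAC1 followed that brightness. For A_70_P059127 the processed signal was 164, 1730, 4820 and 771 on normoxia 1 to 4. It was 334, 1630, 7130 and 3740 on hypoxia 1 to 4. These unscaled ranges overlapped broadly, so the comparison rests on scaling each array. Levels below are log2 of the processed signal minus the log2 75th percentile of the same array, and a log2 fold change is the hypoxia mean minus the normoxia mean of that level.

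RAC1 stood higher in hypoxia at both probes, by 0.97 and 0.99 on the log2 scale. For A_70_P059126 the log2 level was 0.26, 1.27, 1.13 and 0.67 on normoxia 1 to 4. On hypoxia 1 to 4 it was 1.38, 1.97, 2.17 and 1.71. All 4 hypoxia arrays lay above all 4 normoxia arrays at this probe, with a gap of only 0.11 between hypoxia 1, the lowest of its group, and normoxia 2, the highest of its own. The mean level was 1.81 ± 0.34 (SD, n = 4) with hypoxia, against 0.83 ± 0.46 (SD, n = 4) for the normoxia arrays. The log2 fold change was 0.97 (SE 0.32), a fold of 1.96.

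For A_70_P059127 the log2 level was 0.40, 1.53, 1.82 and 0.98 on normoxia 1 to 4. On hypoxia 1 to 4 it was 1.79, 2.25, 2.54 and 2.11. Here the groups overlapped by a single pair of arrays, since hypoxia 1 lay 0.03 below normoxia 3, and 15 of the 16 hypoxia-normoxia comparisons placed hypoxia higher. The mean level was 2.17 ± 0.31 (SD, n = 4) with hypoxia, against 1.18 ± 0.63 (SD, n = 4) for the normoxia arrays. The log2 fold change was 0.99 (SE 0.36), a fold of 1.99. As background for the absence of overlap at A_70_P059126, 1.73% of the 11211 probes that passed the filter on dim signal had all hypoxia arrays above all normoxia arrays.

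**Figure D1:**
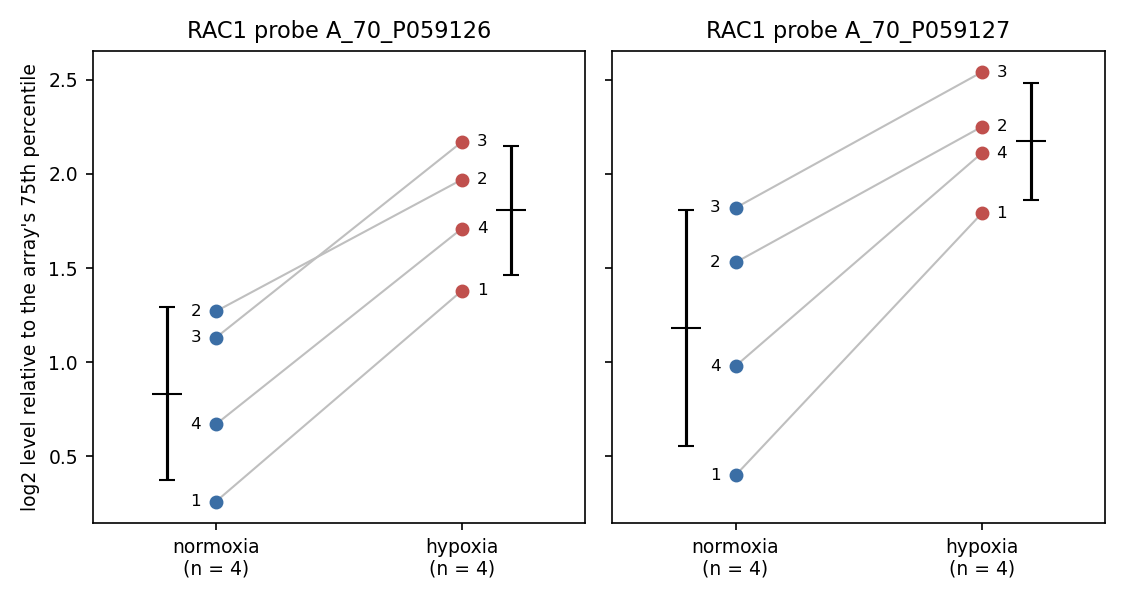
RAC1 log2 level (y axis, relative to the 75th percentile of each array) in normoxia and hypoxia for the 2 probes; points are arrays with their replicate number, grey lines join arrays of the same number, and black bars are mean ± SD (n = 4). Every grey line rises, and the lowest hypoxia array, number 1, sits at 1.38 and 1.79, close to the highest normoxia array at 1.27 and 1.82.

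Arrays with the same replicate number differed in the same direction at both probes. The difference, hypoxia minus normoxia, was 1.12, 0.69, 1.04 and 1.04 for numbers 1 to 4 at A_70_P059126. At A_70_P059127 it was 1.38, 0.72, 0.72 and 1.13. RAC1 was thus higher in hypoxia in 4 of 4 pairs by either probe, though no label states what same-numbered arrays share. As background, 13.8% of probes that passed the filter were higher in all 4 pairs, and for 9.2% of the 337 sequences with at least 2 such probes this held at every probe of the sequence.

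RAC1 levels of same-numbered arrays also sat alike within their groups. Number 1 was the lowest and number 4 the next lowest in both groups at both probes. Relative to its group mean, A_70_P059127 was at -0.78 on normoxia 1 and -0.38 on hypoxia 1, and at 0.63 on normoxia 3 and 0.36 on hypoxia 3. With the replicate number as a block, the SE of the log2 fold change was 0.19 for A_70_P059126 and 0.22 for A_70_P059127, with the fold changes themselves unaltered by construction. In both groups number 1 was also the dimmest array and number 3 the brightest. Only the arrays numbered 1 shared a slide. Whether the number stands for anything beyond brightness was not tested.

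The 2 RAC1 probes rose and fell together from array to array. Their levels correlated over the 8 arrays with a Pearson r of 0.975 (Spearman correlation 0.929), and with r = 0.945 after the group means were taken out. These are descriptions over arrays that share slides and numbers. The 2 probes target the same tag and are not independent measures of the gene. Among the 337 sequences with at least 2 probes past the filter, the median r between 2 probes was 0.932, and 27.6% had an r at or above that of RAC1. The log2 fold changes of the 2 RAC1 probes lay 0.0154 apart, against a median spread of 0.151 over those sequences. Probe sequences were not analysed here, so possible cross-hybridisation with RAC2 or RAC3, close relatives of RAC1, was not tested.

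The spread of RAC1 within groups was moderate. The within-group SD was 0.40 for A_70_P059126 and 0.49 for A_70_P059127, and the median over all 11211 probes was 0.63. A larger SD than that of RAC1 was found for 75.2% and 64.0% of probes, respectively. The first principal component over all probes held 69.8% of the variance between arrays, and the absolute correlation of RAC1 with it was 0.308 and 0.274 over the 8 arrays.

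The size of the RAC1 difference was not the same on each slide. Per the file headers, slide 1 carried all hypoxia arrays but number 4, together with normoxia 1. Slide 2 carried hypoxia 4 with normoxia 2, and slide 3 the remaining normoxia arrays. Within slide 1 the log2 difference was 1.58 for A_70_P059126 and 1.79 for A_70_P059127. Within slide 2 it was 0.43 and 0.58. A single normoxia array stands behind either value, and the one on slide 1, normoxia 1, held the lowest RAC1 level of all 8. Fitting slide as a block gave 1.12 (SE 0.44) and 1.31 (SE 0.47). Slide 3, with normoxia arrays only, adds nothing to these fold changes but does enter their SEs. Scans coincided with slides.

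RAC1 on hypoxia 1 depended strongly on the background correction. With normexp correction of the mean spot signal by the local background, in place of the processed signal, the level on hypoxia 1 went from 1.38 to 0.08 at A_70_P059126 and from 1.79 to 0.12 at A_70_P059127. The level on normoxia 1 moved far less, from 0.26 to 0.15 and from 0.40 to 0.35. Hypoxia 1 then lay below all 4 normoxia arrays at both probes, so 12 of 16 comparisons and 3 of 4 pairs placed hypoxia higher. The other hypoxia arrays kept levels of 1.78, 2.11 and 1.58 at A_70_P059126, above the normoxia maximum of 1.09. The log2 fold change with normexp was 0.81 (SE 0.48) and 0.77 (SE 0.57). Hypoxia 1 was the dimmest array of the series, and which of its values is nearer the true level was not tested.

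**Figure D2:**
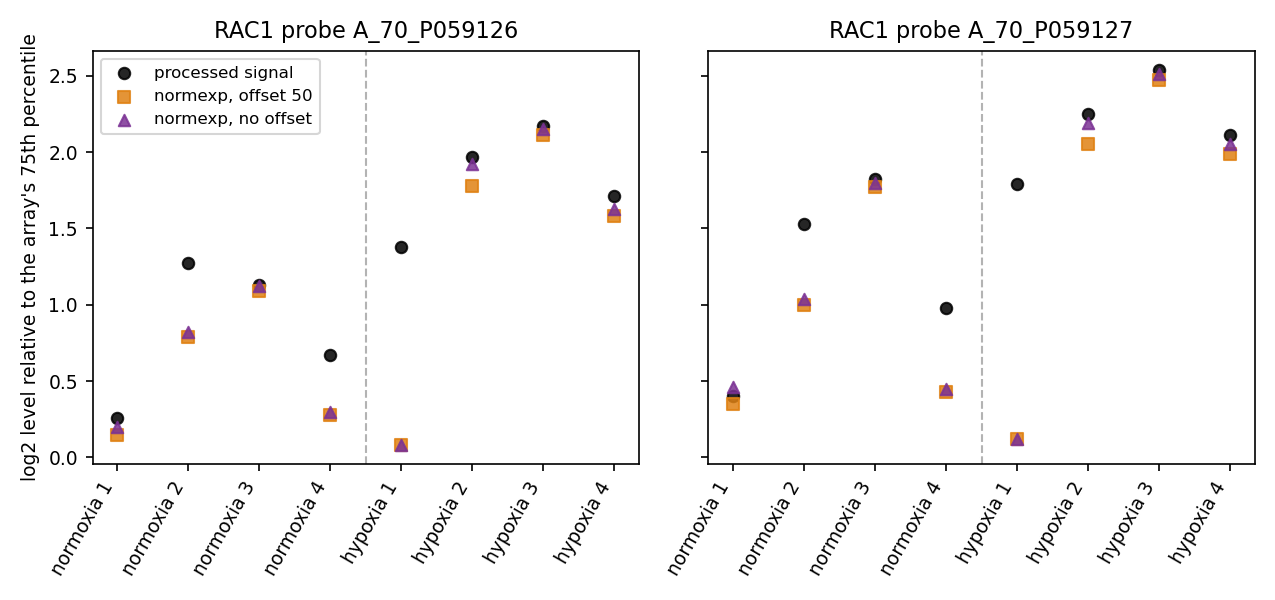
RAC1 log2 level on each array (y axis, relative to the array's 75th percentile) from the processed signal (black circles) and after normexp background correction with an offset of 50 (orange squares) or none (purple triangles); the dashed line parts normoxia from hypoxia. On hypoxia 1 the values split widely, 1.38 against 0.08 at A_70_P059126, while on normoxia 3 and hypoxia 3 the 3 values nearly coincide.

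RAC1 stayed higher in hypoxia when the dimmest arrays were left out. Without both arrays numbered 1, the dimmest of the series, the log2 fold change was 0.93 (SE 0.28) and 0.86 (SE 0.31), and the 3 remaining hypoxia arrays lay above the 3 remaining normoxia arrays in 9 of 9 comparisons at both probes. With normexp and without those arrays it was 1.10 (SE 0.33) and 1.11 (SE 0.40), again in 9 of 9. Under quantile, median and cyclic loess scaling and both normexp settings, the RAC1 values ran from 0.80 to 1.08 at A_70_P059126 and from 0.77 to 1.12 at A_70_P059127. Under median scaling, which shifts the fold change of every probe by the same amount, 12 of 16 comparisons placed hypoxia higher at both probes, with an SE of 0.62 and 0.63. The authors' own table gave RAC1 log2 fold changes of 0.98 and 1.0, computed here from its per-array ratios.

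**Figure D3:**
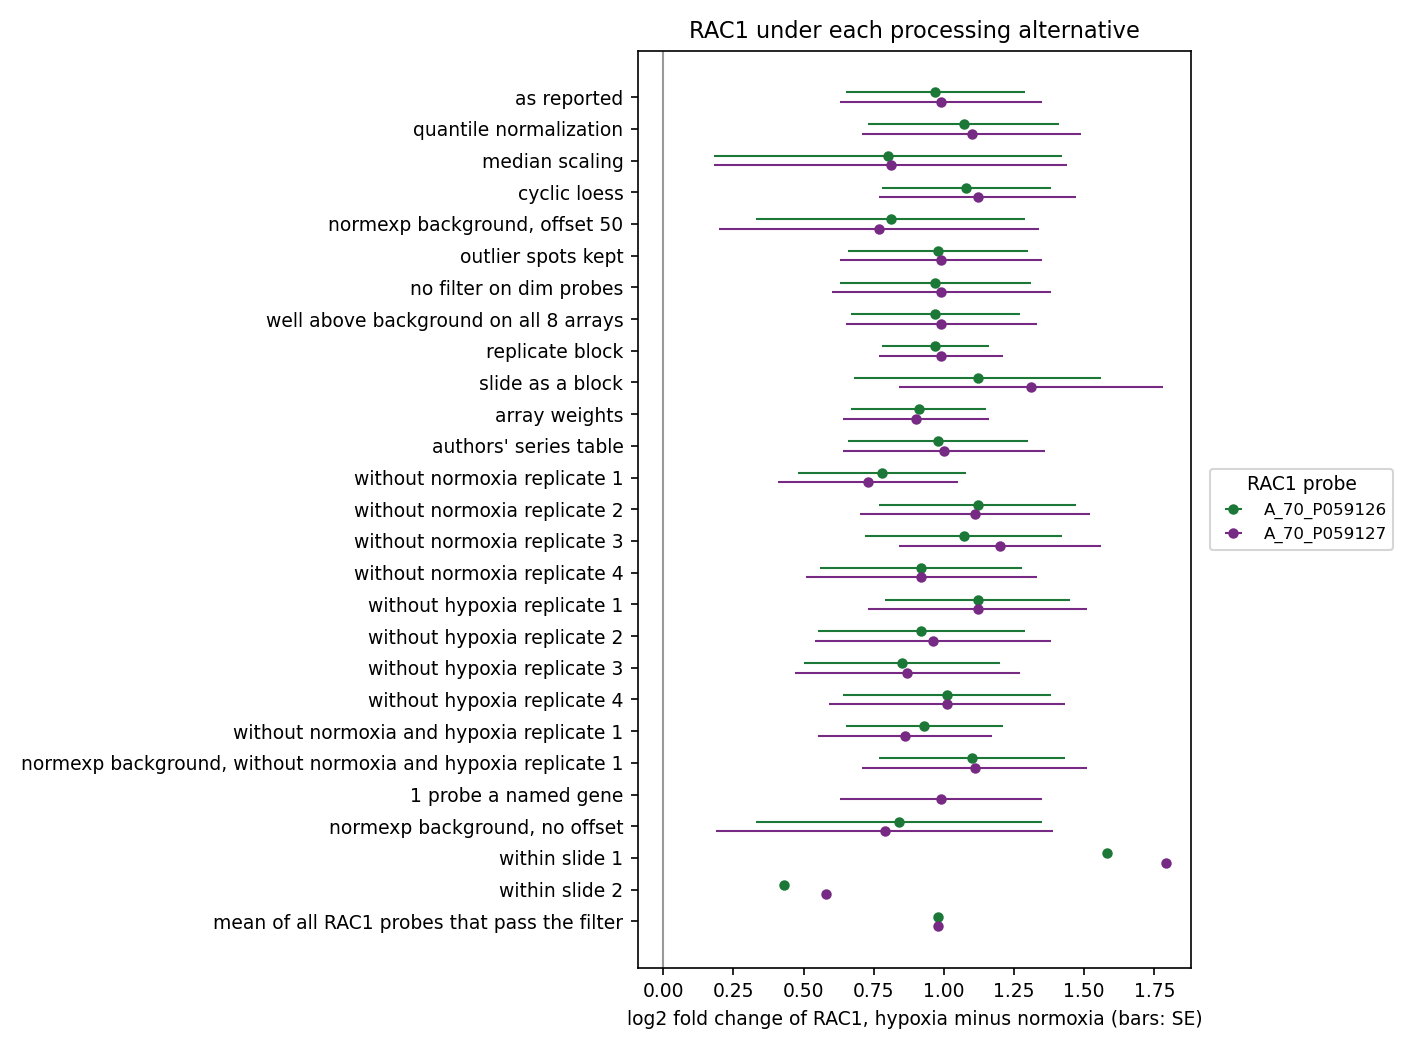
Log2 fold change of RAC1, hypoxia minus normoxia (x axis), at A_70_P059126 (green) and A_70_P059127 (purple) as reported and under each alternative; bars are SE, and the within-slide values and the mean of both probes have none. All points lie above 0, from 0.43 within slide 2 to 1.79 within slide 1.

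Over the whole array, no probe passed the test of hypoxia against normoxia. With limma, 0 of 11211 probes (0%) had a Benjamini-Hochberg adjusted p under 0.05, the smallest adjusted p was 0.998, and 412 (3.67%) had an unadjusted p under 0.05. The median log2 fold change over these probes was -0.02, so RAC1 lay 1.0 and 1.01 above it.

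No measured gene on the Rac pathway lists passed the test. Of 162 other genes on the Rac pathway lists, 17 were named on the array and 16 passed the filter. ITGA5, an integrin subunit, was left out as dim. Taking the brightest probe of each of the 16, 7 were above 0 and 9 below, 0 passed by limma over all probes, and 0 had an unadjusted p under 0.05. With the replicate number as a block 0 passed as well. In that fit 1 of the 16, CYBB, had an unadjusted p under 0.05 by limma, as had 1331 of all 11211 probes. Their groups overlapped in every case, where 2.68% of all probes had none. The median log2 fold change over the 16 was -0.14, against -0.02 over all probes, and their range was -0.62 to 0.56. That range lies below the value of RAC1, which was itself chosen for its size, and it widens under other settings. With slide as a block NOX4 was at -1.50, ITGB1 at 1.29 and NOX1 at -1.22, beside 1.12 and 1.31 for the RAC1 probes, and without hypoxia 1 NOX4 was at -1.68. RAC2, RAC3 and the 32 listed exchange factors, GTPase-activating proteins and dissociation inhibitors were not analysed here.

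Upstream of Rac, integrins and growth factor receptors signal to its exchange factors. The log2 fold change of ITGB1, the beta-1 integrin subunit, was 0.29 (SE 0.91), ITGAV, the alpha-V subunit, 0.06 (SE 0.28), and EGFR, the epidermal growth factor receptor, -0.39 (SE 0.47). ITGB1 was at 0.79 on normoxia 1 and 0.85 on hypoxia 1 and at 3.36 to 4.15 on the other 6 arrays. Within each group it was lowest on the array numbered 1, as RAC1 was, and without normoxia 1 its value was -0.39. MET, the receptor of hepatocyte growth factor, had 0.03 (SE 0.71).

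Among actin effectors, 3 of 40 listed genes were measured. ACTG1, cytoplasmic gamma actin, had a log2 fold change of -0.31 (SE 0.33), CFL1, cofilin, which severs actin filaments, -0.20 (SE 0.42), and ACTB, cytoplasmic beta actin, 0.09 (SE 0.36). The other ACTB probes were at -0.90 (SE 1.63) and -0.12 (SE 1.49). Relative to the median of all probes, ACTG1 changed sign under cyclic loess and CFL1 under normexp. ACTB did so when any of normoxia 1, normoxia 3, hypoxia 2 or hypoxia 4 was left out. Where RAC1 was higher in 4 of 4 pairs, ACTG1 was higher in 0, CFL1 in 1 and ACTB in 1. As background, 10.4% of all probes were lower in hypoxia in all 4 pairs.

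Of the NADPH oxidase genes, CYBA, the p22phox membrane subunit that stabilises several of these oxidases, gave the clearest signal. Its log2 level was 1.01, 1.48, 2.02 and 1.47 on normoxia 1 to 4, and 1.65, 1.36, 1.01 and 0.99 on hypoxia 1 to 4. The groups overlapped, with a log2 fold change of -0.24 (SE 0.30) and -0.19 at its other probe. CYBB, the catalytic subunit NOX2 that needs Rac for its activity, had -0.58 (SE 0.82). CYBB was lower in hypoxia in 4 of 4 pairs, opposite to RAC1, and its SE was 0.21 once replicate number was fitted as a block. SOD2, the mitochondrial superoxide dismutase, had 0.30 (SE 0.38), and -0.05 without normoxia 1. NOX1 and NOX4, other catalytic subunits, were well above background on 4 of 8 arrays each, so their values of 0.18 (SE 1.52) and -0.62 (SE 1.68) carry little information.

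JUN, a transcription factor activated by the JNK kinases that lie downstream of Rac, was the single measured member of the kinase cascades. Its log2 level was 1.85, 0.57, -0.07 and 0.74 on normoxia 1 to 4, and 2.20, 1.86, 0.84 and 0.43 on hypoxia 1 to 4. Its log2 fold change was 0.56 (SE 0.54), with 0.87 (SE 0.35) at its other probe, and the groups overlapped. Within slides 1 and 2 it was -0.21 and -0.14, so unlike RAC1 it lay below 0 on both. Of the listed genes of myosin light chain phosphorylation, which drives contraction, MYLK (myosin light chain kinase) was at -0.60 (SE 0.66), MYL6 (a myosin light chain, lower in 4 of 4 pairs) at -0.37 (SE 0.47) and PPP1R12A (the targeting subunit of myosin phosphatase) at -0.08 (SE 0.43). With slide as a block MYLK changed sign to 0.11.

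Transcripts often used as references lay on both sides of 0 by the brightest probe of each, with a median of -0.08 over 5 genes. PPIA, a cyclophilin, was at -0.51 (SE 0.39) and lower in 4 of 4 pairs, RPL13A, a ribosomal protein, at -0.15 (SE 0.33), and B2M, beta-2-microglobulin, at -0.08 (SE 0.35). EEF1A1, a translation elongation factor, was at 0.37 (SE 0.43), with 0.66 (SE 0.76) and 0.64 (SE 0.52) at its other probes. GAPDH, a glycolytic enzyme, was at 0.16 (SE 0.39), and its other probe was at 0.88 (SE 0.30), close to the values of RAC1. That likeness rests on a dim probe, as neither GAPDH probe was well above background on more than 5 arrays. The mean log2 level of the brighter GAPDH probe was only -4.01 in hypoxia and -4.17 in normoxia. Relative to the median of all probes, RPL13A and B2M changed sign under quantile and cyclic loess scaling and GAPDH under normexp.

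**Figure D4:**
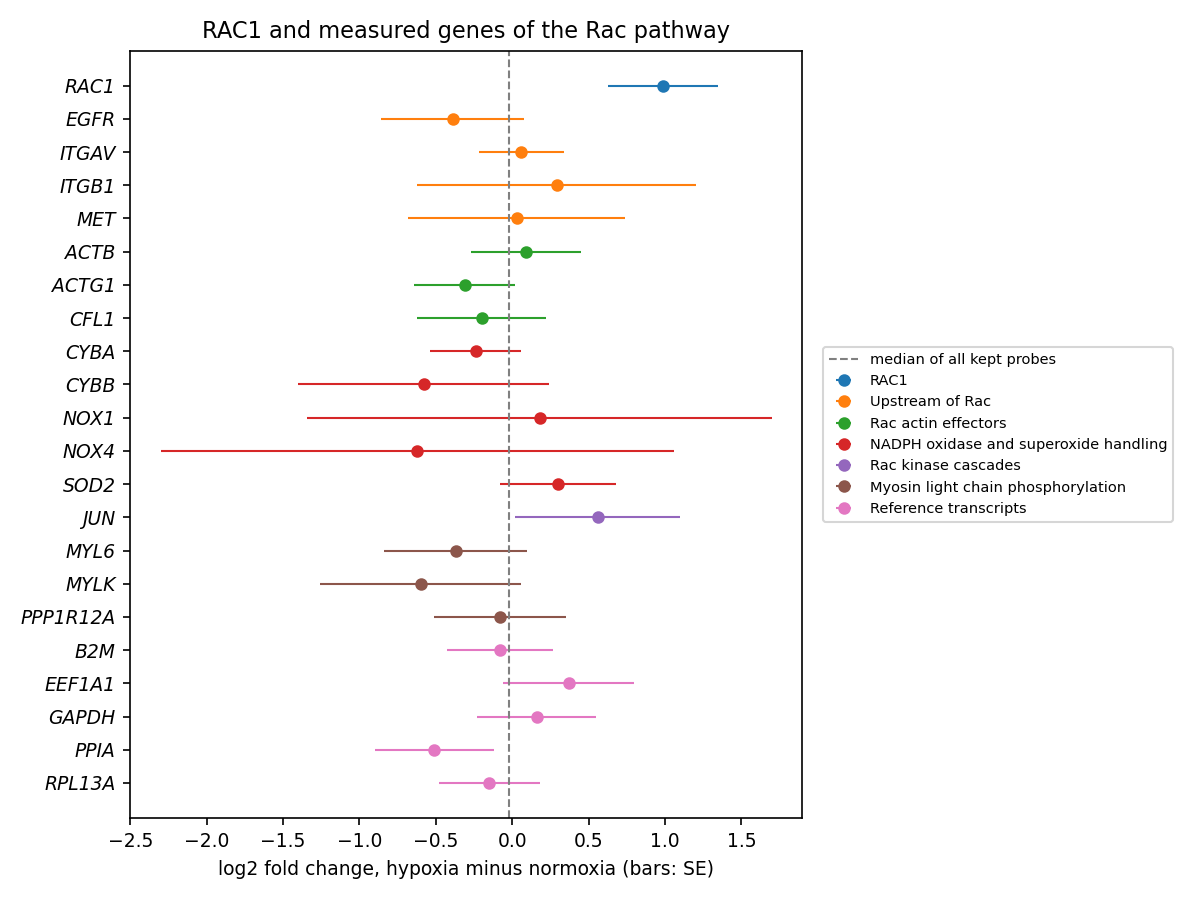
Log2 fold change, hypoxia minus normoxia (x axis, bars SE), of RAC1 at A_70_P059127 and of each measured gene of the Rac pathway and reference lists, coloured by list; the dashed line is the median of all probes past the filter, -0.02. RAC1 lies at 0.99, and the other genes lie between -0.62 and 0.56.

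Carotid artery tissue is a mix of smooth muscle, endothelium, fibroblasts and blood cells, and in bulk RNA fewer cells of a type and less RNA per cell cannot be told apart. The smooth muscle markers CNN1 and MYLK were well above background on 8 of 8 arrays, and ACTA2 and MYH11 were not analysed here. CNN1 and MYLK had log2 fold changes of -0.62 (SE 0.77) and -0.60 (SE 0.66), and without hypoxia 1 CNN1 was at 0.14. The mean level over these 2 genes ran from 4.45 to 7.41 in hypoxia and from 6.32 to 8.11 in normoxia. Over 4 measured endothelial markers it ran from -4.38 to -1.19 and from -3.89 to -2.12. Of these, 3 had log2 fold changes above 0 by the brightest probe, and the median over the list was 0.96. NOS3, the endothelial nitric oxide synthase, was at 1.12 (SE 0.57). The receptor TIE1, well above background on 4 of 8 arrays, was at 2.14 (SE 1.09). The receptor KDR was at 0.81 (SE 0.59), with -0.59, 0.34 and 1.32 at its other probes. FLT1, a further receptor, went the other way, at -0.91 (SE 1.53). With normexp (offset 50) NOS3 was at 0.28, TIE1 at 0.05, KDR at -0.32 and FLT1 at -0.94. Over 3 measured fibroblast markers the mean level ran from 0.83 to 2.27 and from 0.06 to 1.92, with a median log2 fold change of 0.95. Of these, DCN, a matrix proteoglycan and the brightest, was at -0.15 (SE 0.75), and at -0.91 without hypoxia 1, where its level was 7.45 against 4.29 to 4.53 on the other hypoxia arrays. The fibrillar collagens COL3A1 and COL1A1, named after their values were seen, were at 1.80 (SE 0.81) and 0.95 (SE 0.53), and the other COL3A1 probes at 0.52 and 0.54. The list median is thus the value of COL1A1, which was well above background on 6 of 8 arrays. With normexp (offset 50) COL1A1 was at -0.14 (SE 0.58) and COL3A1 at 1.25 (SE 0.85). Over 6 measured leukocyte markers, of 12 listed, the mean level ran from -4.54 to -1.65 and from -3.52 to -1.43. By the brightest probe of each the log2 fold changes ran from -0.95 to -0.02. All 6 were below 0, as were 5800 of the 11211 probes, but the other probes of LYZ and CD14, named after their values were seen, were at 0.53 and 0.08. FCER1G, a subunit of Fc receptors, was the only one of the 6 whose groups did not overlap, at -0.72 (SE 0.27) and -0.36 (SE 0.24) at its other probe. It did not pass over all probes (limma adjusted p 0.998), and 2.68% of all probes had no overlap in either direction. Erythroid (2, HBB), adipocyte (3, FABP4) and skeletal muscle (4, TNNC2) markers also overlapped between groups in their mean level, and the thyroid and thymus list had no member past the filter. The part of cell makeup in the RAC1 difference was not tested.

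The genes whose levels ran most like RAC1 were sought among 617 other named genes, by the Pearson correlation with A_70_P059127 over the 8 arrays. The highest values were for YWHAE, a 14-3-3 adaptor protein (r = 0.961), CTSF and CTSB, lysosomal cysteine proteases (0.943 and 0.917), ACLY, which makes cytosolic acetyl-CoA from citrate (0.905), and GLUD1, the mitochondrial glutamate dehydrogenase (0.900). The other RAC1 probe had 0.975, and the median over the 617 genes was -0.236. YWHAE was at 2.17, 2.91, 2.98 and 2.31 on normoxia 1 to 4 and at 3.1, 3.15, 3.29 and 3.01 on hypoxia 1 to 4, so, as for RAC1, normoxia 1 and 4 were its lowest arrays. Because the correlation spans both groups, it includes the difference that singled RAC1 out. With the group means taken out, the highest were CAV1, the caveolin coat protein of caveolae (0.958), ATP6V1B2, a subunit of the vacuolar proton pump (0.936), and CPE, carboxypeptidase E (0.918).

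Genes that ran opposite to RAC1 were GRINA (r = -0.815), NUDT16, a nucleotide hydrolase (-0.811), and CCR3, an eotaxin receptor (-0.787). These likenesses are descriptions over 8 arrays that share slides, brightness and replicate numbers, and several rest on the background correction. With normexp, YWHAE, CTSB and GLUD1 were at 0.946, 0.972 and 0.949, but ACLY fell to 0.412 and GRINA went to 0.437. With the group means taken out, ATP6V1B2 was at -0.61 with normexp. Of the 5 genes most like RAC1, 1 (CTSB) was still among the first 5 with normexp, and 2 (YWHAE and CTSB) with Spearman's rank correlation.

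**Figure D5:**
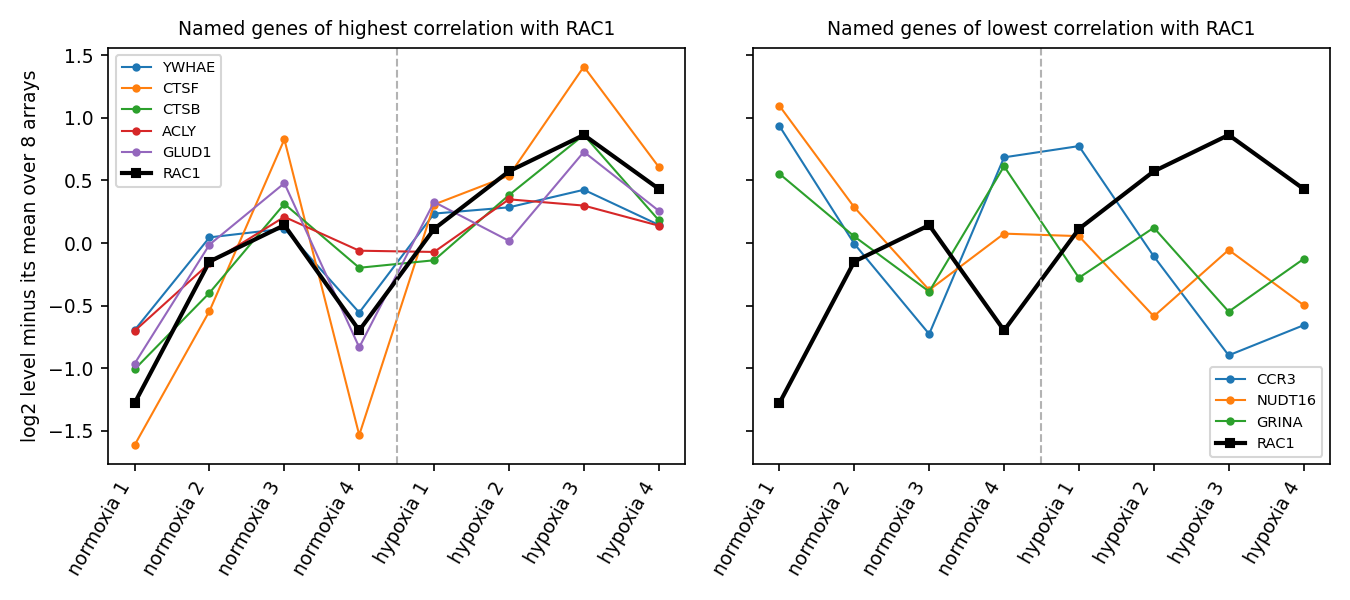
Log2 level minus its mean over the 8 arrays (y axis) for RAC1 (black squares, A_70_P059127), the 5 named genes of highest correlation with it (left) and the 3 of lowest (right); the dashed line parts normoxia from hypoxia, and lines between arrays only guide the eye. Normoxia 1 is the lowest array of RAC1 and of all 5 genes at left, and hypoxia 3 is the highest of RAC1 and of each of them but ACLY.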

How the data were processed

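The deposited scanner files hold spot intensity from Agilent Feature Extraction 9.5.3.1 (protocol GE1-v5_95_Feb07, design 019921), per the file headers. That software subtracted the background from the processed intensity and detrended it, without scaling arrays to each other, per the file headers; mean spot and local background intensity are uncorrected. The authors' deposited series table holds a linear ratio. Set against the scanner values, it is the processed intensity divided by the 75th percentile of its array. For RAC1 its log2 values lay within 0.0411 of those computed here. How this scale was chosen is not given in the sources used here.

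From 15744 spots per array, 536 controls and spots marked as outliers were left out. Log2 processed intensity minus the array's 75th percentile was averaged over a probe's spots. Probes with a value on all arrays (72 lacked one) and well above background on at least 4 of 8 were kept, 11211 in all, each probe as its own feature. Groups were compared with limma 3.58.1 (lmFit, eBayes) in R 4.3.3, with the data.table package (1.17.8), at a Benjamini-Hochberg adjusted p of 0.05, and the procedure was tested on simulated data. RAC1 entered the fit for its estimate and SE only.

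Names came from the files, matched to RefSeq genes of ARS-UI_Ramb_v3.0 (names only) by symbol, accession, locus number, synonym (37 probes) or description (13 probes). A short hand-written list of older names served for 49 probes, and 216 kept their given name without such a match. Of 15008 probes 1427 had a name, for 821 genes. The kept probe of highest mean stood for a gene.

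RAC1, the lists and the named genes were chosen with earlier results of these data known. The genes named were the RAC1 probes, in each other pathway list the 3 members of smallest unadjusted p and the brightest, the brightest member of each marker list, and the 5 genes most and 3 least correlated with RAC1, with the 3 most correlated after group means were removed. NOX1, NOX4, MET, ITGA5, B2M and GAPDH are added as remaining members of short lists. COL3A1, COL1A1, LYZ, CD14, TIE1, KDR and FLT1 are added after their values were seen.

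The groups share replicate numbers. After subtracting group means, arrays with number 1, 2, 3 and 4 correlated across kept probes at 0.820, 0.726, 0.584 and 0.434. Same-numbered arrays were therefore also compared as pairs and fitted as a block in an alternative, while the main fit was unpaired. No label states what same-numbered fetuses have in common, so this pairing rests on the values. These make the same-numbered hypoxia array the closest for normoxia 1, 3 and 4 but not for normoxia 2. Normoxia 2 was closer still to hypoxia 4 (0.801), which lay on its slide. The arrays numbered 1 also shared a slide, while those numbered 2, 3 and 4 did not, so likeness by slide and by number are partly mixed. Alternatives covered scaling, background correction, filters, blocks, array weights, the authors' table and leaving out arrays.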

Additional observations from a re-analysis of the deposited data

Results flagged for a closer look

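Among 114 sets of 4 arrays (the RAC1 probes, the measured genes of all lists and the genes most and least like RAC1, in each group), 5 held a sample far from the others, and chance gives about 1 in 20. ITGB1 was at 0.79 on normoxia 1, with the next normoxia array at 3.36. SOD2 was at -1.38 on normoxia 1, with the next at -0.11. MYLK was at 7.54 on normoxia 4, with the next at 5.57, and without that array its log2 fold change was -0.09. DCN was at 7.45 on hypoxia 1, with the next hypoxia array at 4.53. TIE1, an endothelial receptor, was at -6.16 on hypoxia 4, with the next at -1.69, and its log2 fold change of 2.14 was 3.33 without that array. No RAC1 value stood apart in this way. The largest gap at either end of a group, as a share of the group's range, was 0.434 for RAC1, against 0.861 or more for these genes.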

How the results depend on the processing

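The RAC1 log2 fold change lay above 0 in 26 of 26 values at A_70_P059126 and 27 of 27 at A_70_P059127. These counts include the reported values and are not independent evidence, since all re-use the arrays by which RAC1 was chosen. Changing the filter on dim probes or fitting the replicate number cannot alter the estimate, and the mean of both probes is counted at each. The RAC1 log2 fold change moved by more than the within-group SD only within slides. It went to 1.58 and 1.79 on slide 1 and, for A_70_P059126, to 0.43 on slide 2. The cause was not tested. Leaving out 1 array at a time gave 0.78 to 1.12 and 0.73 to 1.20, lowest without normoxia 1 at both probes. The mean of both probes gave 0.98, with no overlap between groups. With the replicate number as a block, RAC1 stayed at 0.97 and 0.99, no probe passed (0 by limma, adjusted p 0.318 at the lowest), and 1331 probes had an unadjusted p under 0.05, against 412 without the block. In all other fits 0 probes passed too, with counts at that unadjusted p from 173 (without hypoxia 3) to 614 (without normoxia 3) on leaving out 1 array, 134 with median scaling, 24 with normexp and 1358 with array weights. The median over all probes was -0.20 with median scaling and -0.31 with normexp. The median over the 16 pathway genes, -0.14, was -0.32 with median scaling and -0.39 and -0.43 with normexp with and without an offset, moves that accompany those of all probes. It ran from -0.17 to -0.03 on leaving out 1 array. Relative to the median of all probes in each setting, 19 of the 55 measured list genes and genes most or least like RAC1 kept their sign throughout, and 36 changed it under at least 1 setting (130 of 1246 values). Normexp without an offset and leaving out both arrays numbered 1 were chosen after seeing the data.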
